A study of Mus musculus with 4 samples.

Results

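The RNA exosome is the main machine of eukaryotic cells for degrading and trimming RNA from its 3′ end. Its core is a barrel: a ring of subunits related to the bacterial enzyme RNase PH (Exosc4 to Exosc9), topped by a cap of RNA-binding subunits (Exosc1, Exosc2 and Exosc3), with Exosc10 as a nuclear exonuclease bound to the core and Dis3 as the main catalytic partner. In erythroid precursors, earlier work outside these data placed the complex as a brake on maturation: the transcription factors GATA1 and FOXO3 lower the expression of exosome subunits as the cells mature, and loss of the subunit Exosc8 lowers the stem cell factor receptor Kit and advances differentiation.

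The genes described are Exosc1 to Exosc10, each read from the probe set that names it alone and has the highest mean over the arrays. Of the 10 genes, 9 had such a probe set, out of 19938 genes on the array. Exosc6 had none of its own, because its probe set (10575550) is also listed to the tRNA synthetase gene Aars. Probe sets were thus chosen by their mean level on the same 4 arrays, and levels are described and not tested. The family itself was taken up with its differences on these arrays already known.

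The samples were Parp2 knockout (Parp-2-/-) mice, with 2 arrays, and wild type mice, with 2 arrays, on a C57BL/6 background. Parp2 encodes a poly(ADP-ribose) polymerase activated by DNA breaks. Bone marrow cells were sorted for Ter119, a surface protein of the red cell lineage, and CD71, the transferrin receptor, which together mark erythroblasts. Age, sex, the form of the knockout allele and any pooling of animals are not given in the sources used here, nor is it stated that arrays came from separate mice. The p-values therefore rest on sample-to-sample spread that may be technical in origin. Sample titles end in 1 or 2 within each genotype. The labels do not say what this number marks, and arrays are called number 1 and number 2 arrays here. Each main fit held genotype alone or number alone. Its standard errors and p-values thus take in any difference by the factor left out.

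Parp2 read 7.11 and 6.70 on knockout arrays, against 8.24 and 7.65 on wild type arrays, in the deposited log2 units used throughout. The 9 defining erythroblast markers read here had levels from 9.06 to 13.01. Other blood cells were also represented, with neutrophil markers reaching 13.25. Values were spread least on the knockout number 2 array, with an interquartile range of 1.98, whereas the remaining arrays had 2.62 to 2.94.

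The stretches of genome just before the subunits' starts are shown for the genes whose values follow, because Exosc7 and Exosc1 carried the largest differences, Exosc2 came next, and Exosc8 is the subunit best known in erythroid cells. Sequences are from RefSeq promoter windows of build GRCm38.p6, printed 5′ to 3′ on the gene's own strand and limited to bases outside annotated genes. Capitals mark a CCAAT box (CCAAT, the motif of NF-Y) or the forkhead motif of FOXO factors (GTAAACA), on either strand.
Exosc7 (chr9:123113195-123113230, plus strand): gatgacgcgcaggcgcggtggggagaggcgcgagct
Exosc1 (chr19:41933424-41933444, minus strand): agatctgtcccggggcagcct
Exosc8 (chr3:54735365-54735538, minus strand): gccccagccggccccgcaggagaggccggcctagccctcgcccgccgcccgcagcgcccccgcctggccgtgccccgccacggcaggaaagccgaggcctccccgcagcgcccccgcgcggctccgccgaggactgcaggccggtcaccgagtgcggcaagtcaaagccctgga
Exosc2 (chr2:31670465-31670714, plus strand): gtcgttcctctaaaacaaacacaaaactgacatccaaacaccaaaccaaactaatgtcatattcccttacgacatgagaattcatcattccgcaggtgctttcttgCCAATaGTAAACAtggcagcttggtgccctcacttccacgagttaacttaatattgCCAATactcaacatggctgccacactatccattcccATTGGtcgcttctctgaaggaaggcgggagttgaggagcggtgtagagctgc

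The short stretches of Exosc7, Exosc1 and Exosc8 end where a gene on the opposite strand begins. For Exosc1 the 21 bases shown lie between its outermost annotated end and that neighbour, a little upstream of the start used for the promoter window. Of the 8 Exosc genes in the promoter table, 4 had a divergent gene start within 500 bases: Zdhhc3 lies 37 bases from Exosc7, Zdhhc16 131 bases from Exosc1, Alg5 175 bases from Exosc8 and Bckdha 392 bases from Exosc5. Among all 27025 genes of the table the share was 10.9%. Motifs were searched for on both strands of the 250 bases before the start. The FOXO letters GTAAACA occurred in 2 of 8 Exosc promoters (Exosc2 and Exosc6), against 3.17% of all 32851 promoters. GATA letters occurred in 0 of 8, both as AGATAA (9.99% of all promoters) and as TGATAA (7.94%). CCAAT was found in 3 of 8 (33.8% of all), the E-box CACGTG in 1 (6.02% of all), the ETS letters CCGGAAG in 0 (6.91% of all) and TATAAA in 0 (12.4% of all). These matches describe letters in a window and no binding.

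For each of the 9 exosome subunits, more of the variation over the arrays followed the number than the genotype. How many of all probe sets had that order was not counted. All 9 measured subunits had a lower mean on the number 2 arrays than on the number 1 arrays, with log2 differences from -2.67 to -0.76 and a median of -1.13; over all annotated probe sets the median was +0.08, with 43.3% of them below 0 (61.8% of the brighter ones, those with a mean above the median). In bulk RNA, fewer cells of a type and less RNA per cell cannot be told apart. By limma over all 23410 annotated probe sets (Benjamini-Hochberg adjusted p under 0.05), the ring subunit Exosc7 and the cap subunit Exosc1 fell on number 2 arrays. These were 2 of 9 subunits, where 2.15% of all probe sets were called in that direction and 3.09% in either. Of the 11705 brighter probe sets, 495 were called in that direction. The groups did not overlap for 8 of 9 subunits, against 22.2% of all probe sets in the same direction and 38.6% of the brighter ones. At an unadjusted p under 0.05 there were 8 of 9, against 12% of all probe sets and 2685 of the 11705 brighter ones.

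Among the cap subunits, which guide RNA into the barrel, Exosc1 (probe set 10467688) read 5.72 in knockout and 7.18 in wild type on number 2, against 8.43 in knockout and 9.06 in wild type on number 1. Both number 2 arrays were below both number 1 arrays, and the lowest value was in the knockout. The difference was -2.29 ± 0.47 (SE, 2 arrays per number), 4.91-fold lower (limma adjusted p = 0.0363). Exosc2 (10471191) read 6.40 in knockout and 6.79 in wild type on number 2, against 8.12 and 7.77 in knockout and wild type on number 1. The numbers did not overlap, and its difference of -1.35 ± 0.33 narrowly missed the test (limma adjusted p = 0.0577). Exosc3 (10512704), the cap subunit mutated in human pontocerebellar hypoplasia, read 7.38 in knockout and 8.06 in wild type on number 2, against 8.59 in knockout and 8.88 in wild type on number 1. It followed the same order with a smaller difference, -1.01 ± 0.35. Its other probe set (10504562), dimmer and not chosen, had values between 5.63 and 6.03 and a difference of -0.25.

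**Figure D1:**
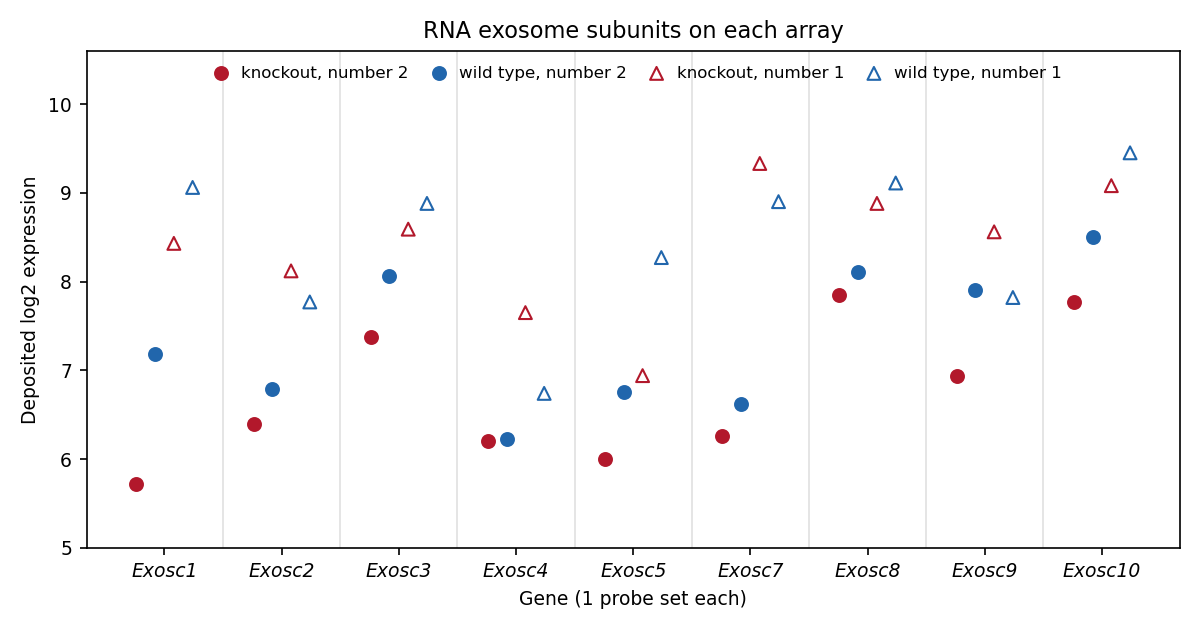
Deposited log2 expression (vertical axis) of the 9 measured exosome subunits (horizontal axis) on the 4 arrays; red is Parp2 knockout, blue is wild type, filled circles are number 2 arrays and open triangles number 1 arrays. For every subunit but Exosc9 both circles lie below both triangles; Exosc1 spans 5.72 to 9.06 and Exosc7 6.26 to 9.33.

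The ring subunits form the wall of the barrel and in mammals have lost the activity of RNase PH itself. Exosc7 (10590549) had the largest difference of all subunits, with 6.26 in knockout and 6.62 in wild type on number 2, against 9.33 in knockout and 8.90 in wild type on number 1. Genotypes were close within each number, and the difference by number was -2.67 ± 0.34, or 6.38-fold lower (limma adjusted p = 0.0125). Exosc4 (10424804) read 6.20 in knockout and 6.23 in wild type on number 2, against 7.65 in knockout and 6.74 in wild type on number 1. Its partner in the ring, Exosc9 (10491551), read 6.94 in knockout and 7.91 in wild type on number 2, against 8.56 in knockout and 7.82 in wild type on number 1. Exosc9 was the exception among the subunits, because wild type number 2 lay slightly above wild type number 1. Exosc5 (10551173) read 6.00 in knockout and 6.75 in wild type on number 2, against 6.94 in knockout and 8.27 in wild type on number 1. Exosc8 (10498168), which pairs with Exosc5 in the ring, read 7.85 in knockout and 8.11 in wild type on number 2, against 8.88 in knockout and 9.11 in wild type on number 1. For Exosc8 the drop was nearly equal in the genotypes, -1.03 in knockout and -1.00 in wild type. The nuclear exonuclease Exosc10 (10510365) read 7.77 in knockout and 8.50 in wild type on number 2, against 9.08 in knockout and 9.45 in wild type on number 1. Differences of Exosc4, Exosc5, Exosc8, Exosc9 and Exosc10 ran from -1.23 to -0.76 and did not pass the limma test (adjusted p from 0.118 to 0.386). The probe set shared by Aars and Exosc6 differed by -0.20.

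The calls for Exosc1 and Exosc7 depended on the setting, while their direction did not in any of 11 alternatives. Without the knockout number 2 array the limma adjusted p was 0.347 for Exosc1 and 0.338 for Exosc7, without the wild type number 2 array it was 0.141 for each, and with arrays centred on their medians it was 0.0972 and 0.0773; over all alternatives it ranged from 2.65e-06 to 0.347 for Exosc1 and from 2.36e-08 to 0.338 for Exosc7. No probe set on the array, and so no gene named here, was called by number without the knockout number 2 array, without the wild type number 2 array, with centred arrays or after the repeated normalisation that follows. The deposited values differed in spread between arrays. Quantile normalisation over the annotated probe sets, called repeated here, aligned them and reduced the median difference of the subunits to -0.71.

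How much of each subunit's variation followed the number was read from the squared differences over the 4 arrays. The number accounted for 97.8% of the variation in Exosc7, 94.4% in Exosc8, 93.1% in Exosc2 and 80.5% in Exosc1. It accounted for the smallest share, 44.1%, in Exosc9. There a larger share, 54.9%, belonged to neither alone, but to the number difference being unlike in the genotypes. The genotype accounted for 40.5% in Exosc5 and at most 18.7% in the other subunits. In knockout all 9 subunits were lower on number 2 than on number 1, with a median of -1.44, and in wild type 8 of 9 were, with a median of -0.99. Over all annotated probe sets 39.9% were lower on number 2 in knockout and 53.8% in wild type; among the brighter ones the shares were 64.2% and 57.2%.

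The study's own comparison was then made, Parp2 knockout against wild type. Parp2 itself, the targeted gene, differed by -1.04 ± 0.40 and did not pass limma (adjusted p = 0.9999). None of the 9 subunits passed limma over all probe sets, where 0% were called in either direction, and 0 of 9 had an unadjusted p under 0.05, against 2.08% of all probe sets. Knockout and wild type values overlapped for all 9, while 9.42% of all probe sets were lower and 15.6% higher in knockout without overlap. The subunits' median difference was -0.25, against +0.06 over all probe sets and -0.11 over the brighter ones. Of the 9 subunits, 7 were lower, as were 43.6% of all probe sets and 7086 of the 11705 brighter ones. With 1 array left out the subunits' median ran from -1.09 (without knockout number 1) to +0.30 (without knockout number 2), so its sign was not settled, and it was -0.06 after repeated quantile normalisation. Exosc1 differed by -1.05 ± 0.96 and Exosc5 by -1.04 ± 0.60 (SE, 2 arrays per genotype), and Exosc4 had the highest value, +0.44 ± 0.54. Exosc7 differed by +0.04 ± 1.10 and Exosc2 by -0.02 ± 0.64. The genotype fit leaves the difference by number in its spread, and the SE of Exosc7 was 0.34 in the number fit.

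Genotypes were then compared array by array, within and across the numbers. On number 1, knockout was above wild type for 4 of 9 subunits (49.9% of all probe sets, 54.5% of the brighter ones), with a median of -0.23 and a range from -1.33 for Exosc5 to +0.91 for Exosc4. On number 2, knockout was below wild type for all 9, with a median of -0.68 and a range from -1.47 for Exosc1 to -0.03 for Exosc4. That direction was found for 43.6% of all probe sets and 68.2% of the brighter ones on these 2 arrays, of which the knockout array is the one with the narrow range. Across numbers, the sign followed the number. The knockout number 1 array was above the wild type number 2 array for all 9 subunits (median +0.77; 51.7% of all probe sets, 57% of the brighter ones), and the knockout number 2 array was below the wild type number 1 array for all 9 (median -1.50; 41.3% and 63.1%). Both signs together held for 27.6% of all probe sets and 44.9% of the brighter ones. Exosc1, Exosc3, Exosc5, Exosc8 and Exosc10 were lower in knockout within each number, and Exosc8 did so by nearly equal amounts, -0.23 on number 1 and -0.26 on number 2; with 1 array on each side, these are values without a test.

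**Figure D2:**
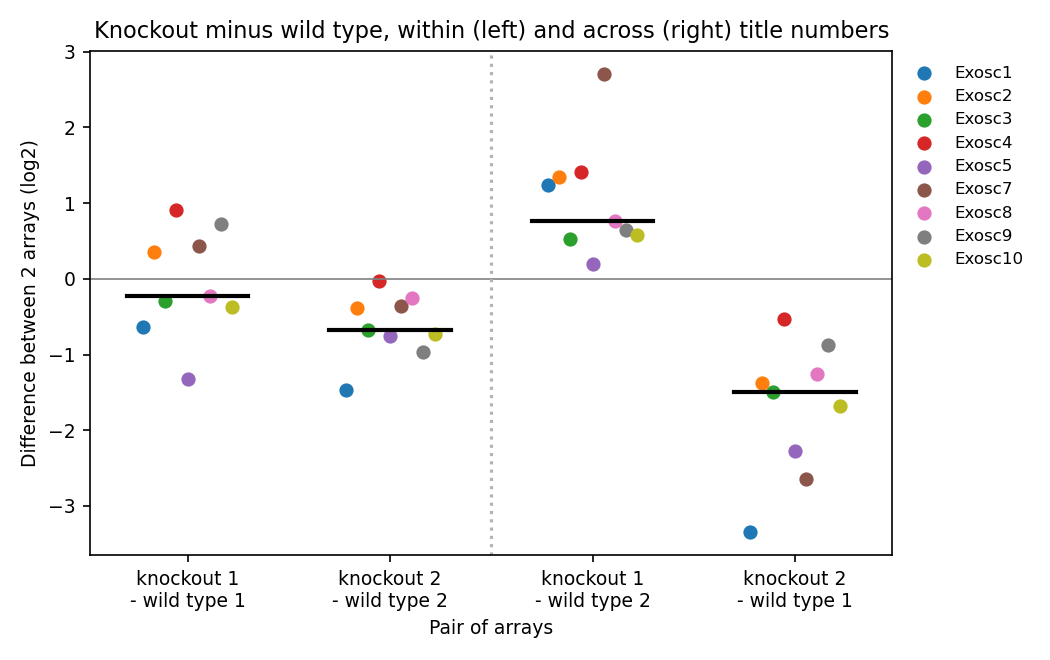
Knockout minus wild type difference (log2, vertical axis) for each pair of arrays (horizontal axis), 1 point per exosome subunit, with the median of the 9 as a black bar. Within numbers the medians are -0.23 and -0.68; across numbers they are +0.77 and -1.50, with all 9 points on one side of 0 in each.

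The exosome needs partners that supply catalysis or deliver RNA. All 5 genes of the list of catalytic partners and cofactors were lower on number 2 without overlap (22.2% of all probe sets, 38.6% of the brighter ones), and 0 passed the limma test; the median difference was -0.98. Dis3, the main exonuclease of the nuclear complex, read 5.79 in knockout and 6.73 in wild type on number 2, against 8.03 in knockout and 7.48 in wild type on number 1, a difference of -1.49 ± 0.39 (limma adjusted p = 0.0724). Its cytoplasmic relative Dis3l differed by -1.01, the cofactor C1d by -0.98, Mphosph6 by -0.76 and the helicase Mtrex, which unwinds RNA for the nuclear exosome, by -0.62. In knockout against wild type these genes had a median of -0.32, with C1d at -0.79, Dis3l at -0.75, Dis3 at -0.19 and Mphosph6 at +0.18, and 0 of 5 passed. With 1 array left out, C1d ran from -1.48 to -0.11 and Dis3l from -1.50 to -0.01.

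Nuclear adaptors, which hand RNA to the exosome, were lower on number 2 for 12 of 14 genes, 8 of them without overlap (against the same 22.2% and 38.6%), with a median of -0.64. The other 2, Zfc3h1 (+0.63) and Zc3h18 (+0.56), were higher without overlap, as were 26.2% of all probe sets; they are named after their values were seen. Ncbp2, the cap-binding protein that links capped RNA to exosome adaptors, fell on number 2 by 1.73 on the log2 scale (limma adjusted p = 0.0403). It was the 1 gene of the 14 to pass, where 2.15% of all probe sets and 495 of the 11705 brighter ones were called lower. Next were Nop53 (-1.19), which recruits the helicase during ribosome assembly, and Ncbp1 (-0.96). The cytoplasmic adaptors had a median of -0.60 over 5 genes, of which 0 passed. On number 2, 3 were lower (22.2% of all probe sets) and 2 higher (26.2%), all without overlap. Skic8 (-1.74) and Skic3 (-0.82) of the Ski complex read lower. Skic2 of the same complex (+0.42) and the ribosome rescue factor Hbs1l (+0.66) read higher. By genotype, Zcchc8, the scaffold of the NEXT adaptor, had the lowest p of the list, with a difference of -0.89 ± 0.35, and the TRAMP component Zcchc7 differed by -0.89 ± 0.45; 0 of 14 passed. Knockout values lay below wild type values without overlap for 2 of the 14 nuclear adaptors, against 9.42% of all probe sets.

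RNA decay genes outside the exosome pathway were compared as well. The 30 measured genes were mostly for decay from the 5′ end, decapping and deadenylation, with Dis3l2, Pnpt1, Upf1 and Upf2 outside those classes. Of the 30, 24 were lower on number 2, 21 of them without overlap (22.2% of all probe sets, 38.6% of the brighter ones). Their median difference was -0.75. The poly(A)-shortening nuclease gene Parn fell by 1.86 on the log2 scale (limma adjusted p = 0.0321) and Cnot1, the scaffold of the CCR4-NOT deadenylase, fell by 1.53 (limma adjusted p = 0.0472). These were 2 of 30, where 2.15% of all probe sets and 495 of the 11705 brighter ones were called lower. Over the mean of its probe sets Cnot1 differed by -0.88 and did not pass. The calls for Parn and Ncbp2 also ended without the wild type number 1 array and among the brighter probe sets, and that of Cnot1 with any of the 4 arrays left out. The subunits' median was lower than that of these lists, and that difference was not tested.

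**Figure D3:**
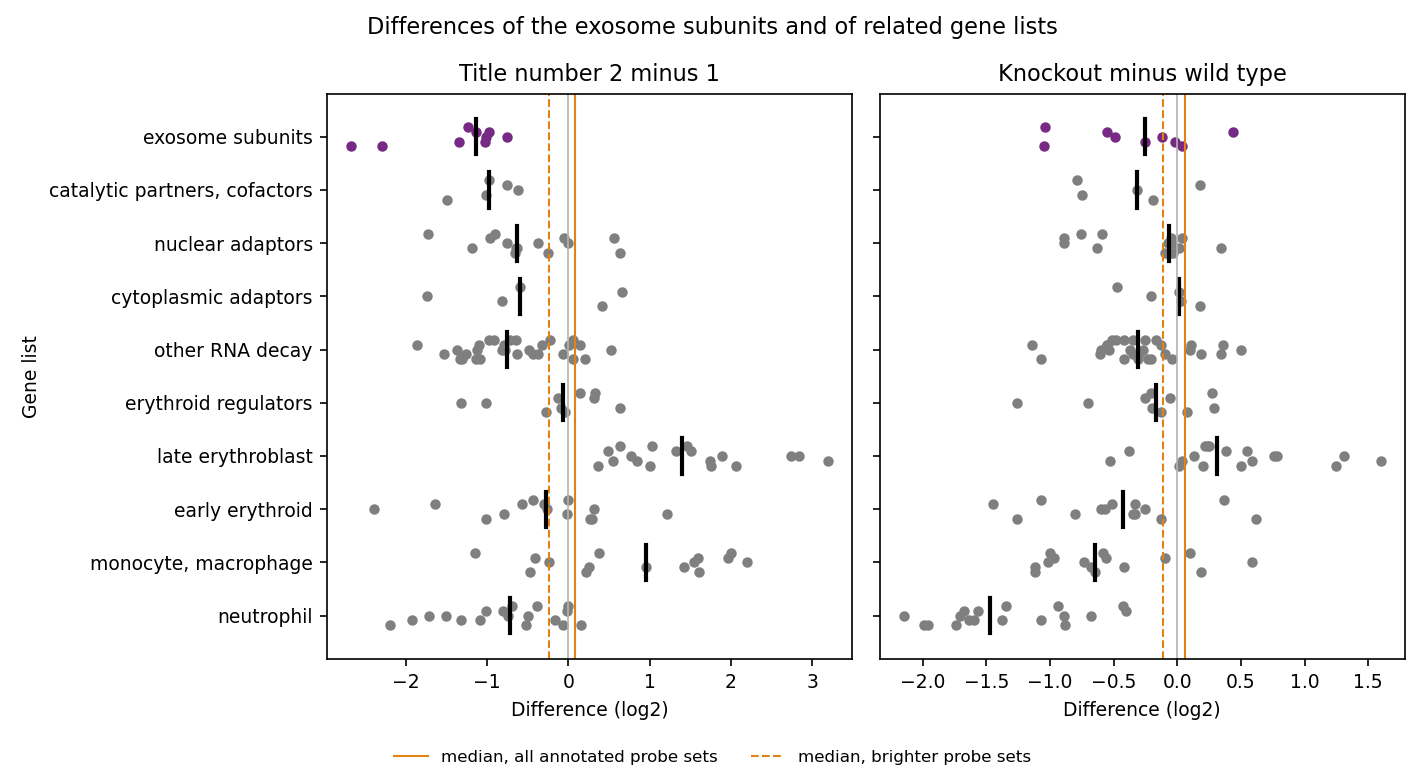
Log2 differences by title number (left panel, number 2 minus 1) and by genotype (right panel, knockout minus wild type); each point is 1 gene, each black bar the list's median, and orange lines are medians over all annotated probe sets (solid) and over the brighter ones (dashed). By number, the exosome subunits (-1.13) and late erythroblast genes (+1.40) lie on opposite sides; by genotype their medians are -0.25 and +0.32.

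Genes of late erythroblasts ran the other way by number. All 18 measured genes of that list were higher on number 2 without overlap, against 26.2% of all probe sets in that direction, with a median of +1.40. Of these, 4 rose in the limma test, where 0.94% of all probe sets and 157 of the 11705 brighter ones were called higher. Trim58, a ubiquitin ligase of enucleating cells, rose by 2.84 (adjusted p = 0.0387), Bpgm, which makes 2,3-bisphosphoglycerate, by 1.89 (adjusted p = 0.0499), the membrane skeleton gene Epb42 by 1.75 (adjusted p = 0.0477) and Gabarapl2, an autophagy gene, by 1.46 (adjusted p = 0.0409), all by limma. None of the 4 calls held over the brighter probe sets or over all rows of the table. Trim58 read 8.66 in knockout and 9.29 in wild type on number 2, against 7.24 in knockout and 5.04 in wild type on number 1. The arrays ranked in a different order for the 2 lists. Wild type number 1 had the highest mean of the subunits (8.44) and the lowest mean of the late genes (8.81), while knockout number 1 was close to it for the subunits (8.40) but higher for the late genes (9.85). On number 2 the subunits averaged 6.72 in knockout and 7.35 in wild type, and the late genes 10.71 in knockout and 10.87 in wild type.

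Regulators tied to the exosome in erythroid cells had no shared direction, with a median of -0.07 by number and 0 of 10 genes past the test. Foxo3 read 10.15 in knockout and 9.81 in wild type on number 2, against 9.47 in knockout and 9.23 in wild type on number 1, a difference of +0.63 ± 0.32 (limma adjusted p = 0.356). Gata1 stayed within 9.52 to 9.84 on the 4 arrays, with a difference of -0.04 that turned to +0.29 after repeated quantile normalisation. Ldb1, a scaffold of the GATA1 complex, differed by -1.32 ± 0.38 (limma adjusted p = 0.0954). Kit read 5.82 in knockout and 5.98 in wild type on number 2, against 5.73 in knockout and 8.09 in wild type on number 1. One array, wild type number 1, was thus high for Kit: the difference by number was -1.01 ± 0.61 with it and +0.17 without it. By genotype Kit differed by -1.26 ± 0.67, and by -0.21 without that array. In the list of early erythroid and progenitor genes, with a median of -0.28 by number, 10 of 14 were lower on number 2 and 4 higher. Of these, 3 were lower without overlap (22.2% of all probe sets) and 3 higher without overlap (26.2%). Myc, at -2.39, was the 1 gene of the 14 past the test (limma adjusted p = 0.0201). Of all probe sets 2.15% were called lower, and of the 11705 brighter ones 495 were.

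**Figure D4:**
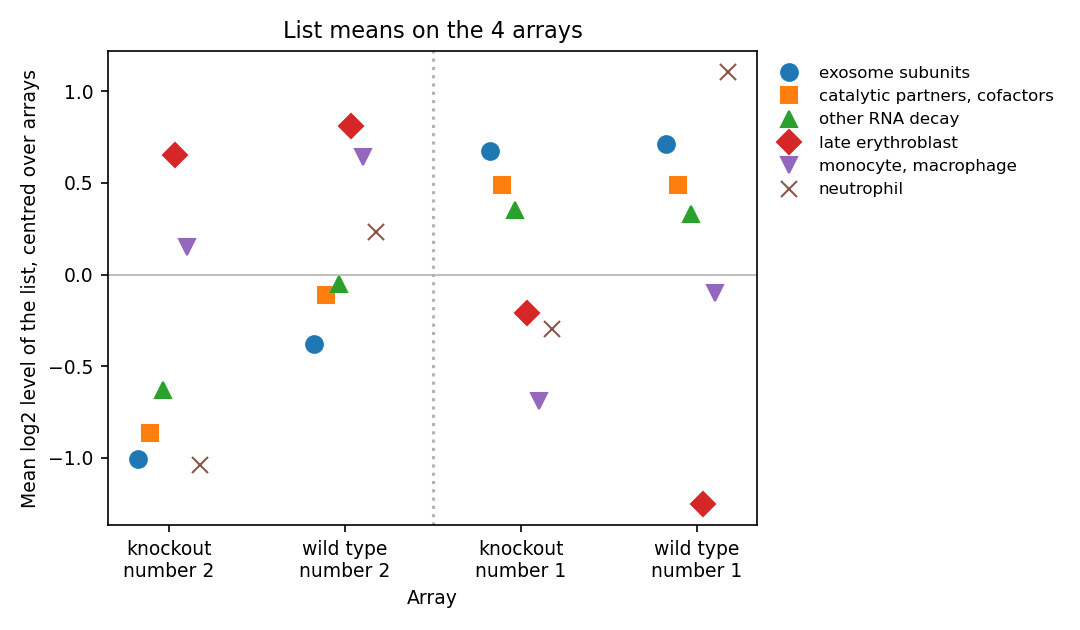
Mean log2 level of 6 gene lists (vertical axis), each centred on its own mean over the 4 arrays (horizontal axis, number 2 arrays left of the dotted line); symbols stand for lists. The exosome subunits average 6.72 and 7.35 on number 2 arrays against 8.40 and 8.44 on number 1 arrays (knockout, then wild type), and late erythroblast genes 10.71 and 10.87 against 9.85 and 8.81.

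Markers of other cells were read by number as well. Of 15 monocyte and macrophage markers, 11 were higher on number 2, 9 without overlap (26.2% of all probe sets). The other 4 were lower, 2 without overlap (22.2% of all probe sets). In the limma test 4 passed as higher (0.94% of all probe sets), among them Vcam1 (+2.20, adjusted p = 0.0229), Cd163 (+1.96, adjusted p = 0.0285) and Siglec1 (+1.59, adjusted p = 0.0331), genes of tissue macrophages. Summed on the linear scale, this list reached 3743 in knockout and 6291 in wild type on number 2, against 3454 in knockout and 6088 in wild type on number 1, with single values from 3.80 to 12.05. Much of the sum is the lysozyme gene Lyz2, the brightest of the list, which read 10.67 in knockout and 11.79 in wild type on number 2, against 11.23 in knockout and 12.05 in wild type on number 1, and the sum does not show the rise of the dimmer genes. Neutrophil markers were lower on number 2 for 17 of 18 (43.3% of all probe sets, 61.8% of the brighter ones). Only 3 of the 18 were lower without overlap (22.2% of all probe sets, 38.6% of the brighter ones). In the limma test 0 passed, and Fcnb had the lowest p (-1.92). Neutrophil markers summed to 21276 in knockout and 39101 in wild type on number 2, against 27771 in knockout and 48054 in wild type on number 1. By genotype, neutrophil markers were lower in knockout for all 18, 15 of them without overlap (9.42% of all probe sets). At an unadjusted limma p under 0.05 there were 9 of 18 lower, against 1.73% of all probe sets. In the main fit 0 passed the adjusted test, and Chil3 at -1.96 had the lowest p. The part of these cells in the subunits' differences was not tested. Summed over the 9 subunits, the linear level was 1090 in knockout and 1683 in wild type on number 2, against 3363 in knockout and 3595 in wild type on number 1.

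Head-to-head neighbours of the subunits were read beside them; they were taken by position and stand outside the rule for named genes. Zdhhc3, which starts 37 bases from Exosc7, read 6.04 in knockout and 7.16 in wild type on number 2, against 8.59 in knockout and 7.98 in wild type on number 1, a difference of -1.68 ± 0.42 (limma adjusted p = 0.0614). Alg5 beside Exosc8 differed by -0.93 ± 0.35, also without overlap. Zdhhc16 beside Exosc1 differed by -0.42 ± 0.34 and Bckdha beside Exosc5 by -0.36 ± 0.36, with overlapping values. So 2 of 4 neighbours were lower without overlap, as were 22.2% of all probe sets and 38.6% of the brighter ones, and 0 of 4 passed the test. Bckdha was higher on number 2 than on number 1 in knockout (+0.22) and lower in wild type (-0.93).

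The mean profile of the 9 subunits, each centred on its own mean, was -1.00 in knockout and -0.38 in wild type on number 2, against +0.67 in knockout and +0.72 in wild type on number 1. The 3 genes with the nearest profile by Euclidean distance over the 4 arrays were Glud1 (distance 0.006), a mitochondrial glutamate dehydrogenase, Pdia3 (0.014), a protein disulfide isomerase of the endoplasmic reticulum, and Cct5 (0.026), a subunit of the chaperonin TRiC. The nearest subunit was Exosc2 at 0.332, and 269 of the 19929 other genes were nearer than that. Exosc7 (1.347) and Exosc1 (1.165) were farthest from the mean profile.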

How the data were processed

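Biotin-labelled RNA (100 ng per sample) was hybridised to Affymetrix whole-transcript arrays, per the labels. The authors deposited log2 expression values for 35511 probe sets; RMA, limma and R 3.0.2 are named in the submitters' processing notes, with roles not given there. RMA background-corrects, quantile-normalises and summarises, and compresses differences of dim and very bright probe sets. The values were used as deposited. Over annotated probe sets their interquartile ranges ran from 1.98 to 2.94. The quantile normalisation called repeated here thus aligned arrays that still differed in spread. The platform annotation named 1 gene for 21789 probe sets, several for 1621 and none for 12101. Genotypes (2 arrays against 2) and title numbers (2 against 2) were each fitted over 23410 annotated probe sets (limma 3.58.1 under R 4.3.3, functions lmFit and eBayes); the fits were tested on simulated data. With 2 arrays per side, exact permutation (two-sided) reaches p = 0.333 at best, so none was used. Named genes are the subunits, Parp2, up to 4 genes per list of lowest p in either fit, a few fixed partners and regulators, and the 3 genes of nearest profile. Members and lists were chosen with earlier results of these data known. Alternatives were a replicate block, leaving out each array, centring, repeated quantile normalisation, brighter probe sets alone, other moderation, all rows, and averaging the probe sets of a gene.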

Additional observations from a re-analysis of the deposited data

Results flagged for a closer look

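The genotype difference had opposite signs on the title numbers for 4 subunits, each with 1 array per side, and the difference between numbers was not tested. Knockout minus wild type was +0.35 on number 1 and -0.38 on number 2 for Exosc2, +0.91 and -0.03 for Exosc4, +0.43 and -0.36 for Exosc7, and +0.73 and -0.97 for Exosc9. Exosc9 also differed in opposite directions by number in the genotypes, at -1.61 in knockout and +0.09 in wild type (number 2 minus number 1), which was not tested either.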

How the results depend on the processing

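By genotype, 0 of the 9 subunits passed limma under any alternative. The count over all probe sets (0) was 0 to 62 with 1 array left out, 8 with trended and robust moderation and 274 with the number as a replicate block. Only 2 pairs share a number, and the number 2 minus 1 differences in knockout and in wild type had a correlation of 0.468 over probe sets, too few pairs to show pairing; the block called 0 subunits, but did call the named markers Chil3 (adjusted p = 0.000462) and Ms4a1 (adjusted p = 0.000315), both by limma. The subunits' median by genotype (-0.25) was -1.09 to +0.30 with 1 array left out. By number, the count over all probe sets (724) was 0 to 1178 with 1 array left out, 2121 with genotype as a block, 2190 with trended and robust moderation, 182 among brighter probe sets and 0 after centring, after repeated quantile normalisation and over all rows. Subunits past that test (2) numbered 0 to 3 with 1 array left out, 4 with genotype as a block (Exosc2 at 0.0142 and Exosc5 at 0.0316 were added, adjusted p by limma), 1 among brighter probe sets and 0 after centring, after repeated quantile normalisation and over all rows. Their median by number (-1.13) was -1.50 to -0.89 with 1 array left out and -0.71 after repeated quantile normalisation; each subunit stayed lower on number 2 throughout. Genotype as a block also called Dis3, Nop53, Skic8, Dcps, Ldb1, Alas2, Fcnb and Zdhhc3 by number. Genotype differences of most subunits changed sign with 1 array left out, which unbalances the numbers: Exosc1 ranged from -2.41 to +0.30, Exosc2 from -0.88 to +0.85, Exosc3 from -1.09 to +0.11, Exosc4 from -0.28 to +1.16, Exosc7 from -1.50 to +1.57, Exosc8 from -0.76 to +0.27, Exosc9 from -0.92 to +0.69, Exosc10 from -1.20 to +0.11 and Dis3 from -1.31 to +0.93. Exosc5 kept its sign, from -1.80 to -0.28. Repeated quantile normalisation gave +0.11 for Exosc2 and +0.08 for Exosc9, and centring gave -0.04 for Exosc7. By number, Gata1 ranged from -0.21 to +0.12 and Kit from -2.19 to +0.17 with 1 array left out, and Gata1 was +0.29 after repeated quantile normalisation. With 4 arrays in all, precision is low throughout.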

Other observations

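Other marker lists give the cell content beside which the subunits were read. B cell markers were lower in knockout for 10 of 12 genes, 9 without overlap (9.42% of all probe sets), with Ms4a1 at -2.00, and by number they had a median of +0.45. Mast cell and basophil markers were lower in knockout for 8 of 12 (median -0.32), and their median by number was +0.01. T and NK cell markers were lower in knockout for 7 of 10 (median -0.28, and +0.27 by number). Megakaryocyte and platelet markers were higher in knockout for 5 of 7 (median +0.20, and +0.32 by number). None of these genes passed limma by genotype in the main fit, though Ms4a1 did with the number as a replicate block. By number, 1 of the 7 megakaryocyte and platelet markers, Ppbp, passed in the main fit (+2.12, limma adjusted p = 0.0493). Of all probe sets 0.94% were called higher on number 2. Among the erythroblast markers themselves, 7 of 9 were higher on number 2 without overlap (26.2% of all probe sets). The heme enzyme gene Alas2 was at +1.51 and the transferrin receptor gene Tfrc at +0.91. Alas2, Slc4a1, Epb42, Hemgn and Rhag are also in the late erythroblast list, so the lists are not separate observations.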
